A study of Mus musculus with 16 samples.

Results

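The 10 genes described here encode the machinery that starts the cell cycle: the kinases Cdk4 and Cdk6, the D-type cyclins Ccnd1, Ccnd2 and Ccnd3, the inhibitors Cdkn1b, Cdkn2c and Cdkn2d, and the pocket proteins Rb1 and Rbl2. They were picked by gene symbol from the 25650 genes of the deposited count table, and the counts of all 16 libraries were known when they were chosen. Their levels and fold changes are therefore given as a description, without p-values. Some of these genes are said below to pass or lose a threshold, an edgeR adjusted p under 0.05. Such calls serve only the counts set beside all genes and are not evidence for a single gene. Of the 10 genes, 9 passed the filter on low counts and were among the 9540 genes tested, and Ccnd1 did not pass.

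D-type cyclins bind CDK4 or CDK6, and the active kinases phosphorylate the retinoblastoma protein and its relatives, which otherwise hold E2F transcription factors in check. Inhibitors of the INK4 family bind CDK4 and CDK6 themselves, while p27, the product of Cdkn1b, binds cyclin-kinase complexes and acts mainly on CDK2. In lymphoid and myeloid cells the step is set largely by CDK6 with cyclins D2 and D3, and cytokines that signal through JAK kinases and STAT factors are known to control several of these genes.

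The libraries came from Ba/F3 cells, a mouse pro-B cell line that needs interleukin-3 to grow. Cells of the first line, labelled wt, had gp130 together with the receptor for interleukin-6 (gp130:IL-6R cells). Those of the second had a receptor named ChimP3V3:gp130Box1/2 (ChimP3V3 cells). Each line was sampled in medium and with interleukin-6 (IL-6) at 100 ng/ml, with 4 libraries in each of the 4 groups. The labels do not give the time under IL-6, the presence of interleukin-3, the promoter behind the receptors or whether a line is 1 clone. They also do not call the 4 libraries of a group separate cultures, so p-values measure only the spread between these libraries, which may be technical. Because RNA was measured in bulk, a smaller share of cells expressing a gene and less RNA per cell cannot be told apart.

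Library totals ran from 1275112 to 1650348 counts. A count of 3, the limit that 0 counts allows, was worth 1.80 to 2.41 CPM (a gene's count scaled to a common library size), and this limit covers counting error only. The gp130 gene Il6st had 181 to 235 counts per library in gp130:IL-6R cells in medium, 255 to 278 under IL-6 and 0 in all 8 ChimP3V3 libraries. Of 12 markers of pro-B cells and of the interleukin-3 receptor, 6 could be tested, 1 had 0 counts, and Igll1, Cd93 and Pax5 had 2, 4 and 7 counts in all. The summed level of these 12 markers was 811 to 862 CPM in gp130:IL-6R cells in medium, 1005 to 1054 CPM under IL-6, 1247 to 1327 CPM in ChimP3V3 cells in medium and 1230 to 1340 CPM under IL-6. Of 17 markers of other cell types, Cd3e, Ncr1 and Epcam were at 0 and 8 could be tested. Their summed level was 136 to 147, 66.5 to 96.0, 557 to 600 and 1168 to 1245 CPM in the same order of groups, mostly from the erythroid genes Hbb-bs, Klf1 and Gata1 and the mast cell gene Cpa3. Ribosomal protein genes took 5.92 to 6.33% of counts in gp130:IL-6R cells in medium and 6.94 to 7.42% under IL-6, against 6.71 to 6.94% and 7.49 to 7.85% in ChimP3V3 cells. Mitochondrial genes took 1.14 to 1.19% and 1.43 to 1.62% of counts in gp130:IL-6R cells, and 1.38 to 1.45% and 1.66 to 1.75% in ChimP3V3 cells, so both shares were higher under IL-6 in each line, without overlap. The part of these marker and composition differences in the results below was not tested. Within groups, 6 of 24 pairs of libraries differed by no more than counting noise, and each library was still counted as 1. Over all 24 pairs the variance was only 0.981 to 1.18 times that of counting noise (chi-square per degree of freedom).

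Cdk6 (ENSMUSG00000040274, chromosome 5, 3391485 to 3581008, plus strand, GRCm39 as for all genes) encodes the kinase that pairs with D cyclins in blood cells. It was measured at 591, 595, 627 and 597 CPM in the 4 libraries of gp130:IL-6R cells in medium, and at 403, 426, 419 and 388 CPM under IL-6. Every IL-6 library of this line was below every medium library. In ChimP3V3 cells the levels were 435, 409.6, 439 and 425 CPM in medium and 732, 713, 696 and 708 CPM under IL-6, and here every IL-6 library was above every medium library. The group means were 602 ± 16.9, 409 ± 16.8, 427 ± 13.0 and 712 ± 14.8 CPM (SD, n = 4 each). Cdk6 was thus 1.47-fold lower under IL-6 in gp130:IL-6R cells (log2 -0.56, SE 0.0377) and 1.67-fold higher in ChimP3V3 cells (log2 0.74, SE 0.0371).

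The responses of Cdk6 in the lines differed by 1.30 on the log2 scale (SE 0.0528). By the size of this difference Cdk6 stood at place 313 of all 9540 genes. Among the 239 tested genes with a mean of at least its 537.7 CPM, no other had a difference as large. That set was bounded by the level of Cdk6 itself, so its place there is a description and not evidence. Libraries without overlap that were lower in gp130:IL-6R cells and higher in ChimP3V3 cells were found for 136 of the 9540 genes (1.43%), and the opposite pattern for 76 (0.797%). Ordered by level, ChimP3V3 cells under IL-6 were highest, gp130:IL-6R cells in medium came next, and the last places were shared by ChimP3V3 cells in medium and gp130:IL-6R cells under IL-6, whose libraries overlapped.

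**Figure D1:**
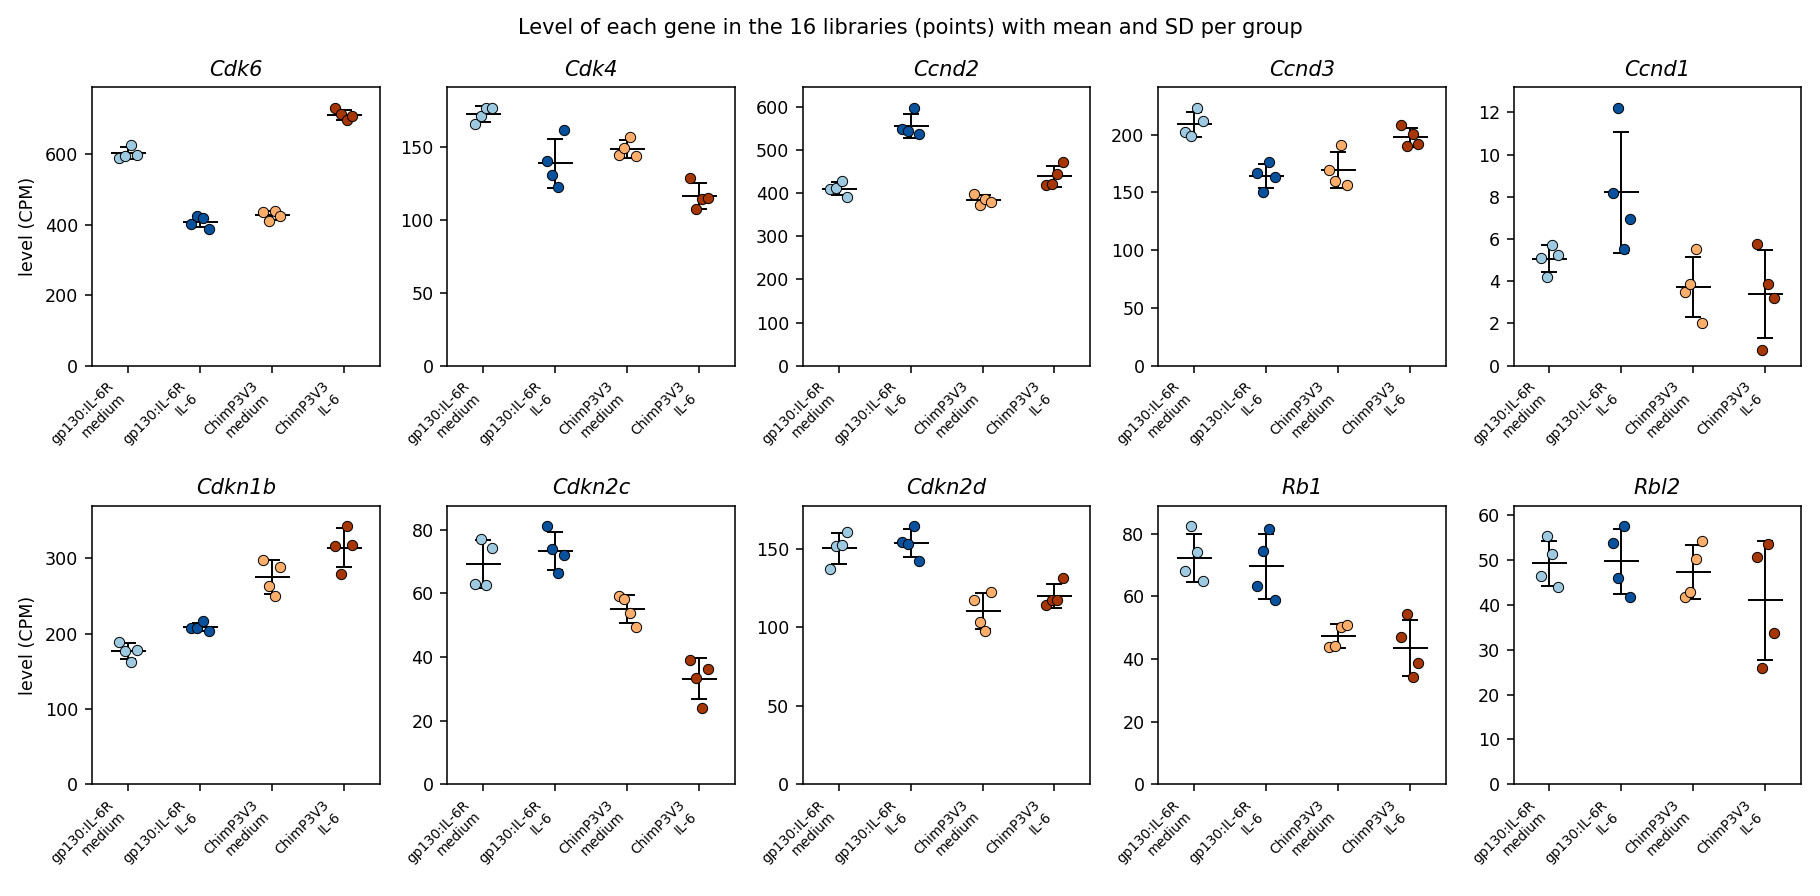
Level in CPM of each of the 10 genes in the 16 libraries (points), with the mean and SD of each group of 4. Cdk6 lay at 388 to 426 CPM in gp130:IL-6R cells under IL-6 and at 696 to 732 CPM in ChimP3V3 cells under IL-6, on opposite sides of the respective medium libraries.

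Cdk4 (ENSMUSG00000006728, chromosome 10, 126899403 to 126903789, plus strand), the kinase that shares the D cyclins with CDK6, did not show this split. Its levels were 165, 171, 177 and 177 CPM in gp130:IL-6R cells in medium and 140.2, 131, 123 and 162 CPM under IL-6. In ChimP3V3 cells they were 145, 149, 157 and 144 CPM in medium and 129, 108, 114 and 115 CPM under IL-6. Within both lines the IL-6 libraries were all below the medium libraries, with log2 changes of -0.31 (SE 0.0654) in gp130:IL-6R and -0.35 (SE 0.0737) in ChimP3V3 cells. The difference between these responses was -0.045 (SE 0.0989). Of the steps in its order of levels, only the one from ChimP3V3 cells in medium up to gp130:IL-6R cells in medium was free of overlap.

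The bases just upstream of the kinase genes are shown because motifs for factors known to act on this family were searched there, in the RefSeq promoter table on GRCm38.p6. The table matched 7 of the 10 genes with 9 transcription starts, and 250 bases before each start were searched on both strands. The Cdk6 stretch lies at chr5:3343643-3343892, plus strand, and the Cdk4 stretch at chr10:127063285-127063534, plus strand; both are written 5′ to 3′, and capitals mark CACGTG, the E-box that MYC and related factors bind.
Cdk6: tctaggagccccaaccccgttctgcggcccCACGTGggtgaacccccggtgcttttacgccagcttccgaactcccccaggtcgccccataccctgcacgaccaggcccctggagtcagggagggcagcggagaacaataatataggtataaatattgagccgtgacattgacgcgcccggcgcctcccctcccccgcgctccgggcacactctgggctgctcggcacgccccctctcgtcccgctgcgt
Cdk4: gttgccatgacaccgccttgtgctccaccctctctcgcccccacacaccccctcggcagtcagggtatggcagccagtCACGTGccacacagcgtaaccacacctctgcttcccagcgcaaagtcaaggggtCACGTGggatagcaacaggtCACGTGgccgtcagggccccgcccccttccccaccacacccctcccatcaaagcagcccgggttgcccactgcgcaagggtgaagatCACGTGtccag
Cdk4 held 4 such matches, the first base of each lying 172, 118, 98 and 11 bases before the start, and Cdk6 held 1, at 220 bases. Of all 32851 promoters in the table, 6.02% held CACGTG at least once and 0.0213%, or 7 promoters, held it 4 or more times. CACGTG includes a CG, and these shares were not matched for CG content. The median promoter held 6 CG dinucleotides in 250 bases, against 13 for Cdk4 and 22 for Cdk6. The STAT motif TTCNNNGAA, found in 7.02% of all promoters, and the E2F motifs TTTGGCGC or TTTCCCGC, found in 1.3%, had no match before any of the 9 starts. The FOXO motif GTAAACA, found in 3.17%, matched once in reverse as TGTTTAC, 243 bases before the first of 2 Ccnd3 starts. Cdkn1b, Cdkn2c, Cdkn2d and Rbl2 matched none of these motifs. A match or its absence describes these letters in this window only.

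Among the D cyclins, Ccnd2 was higher under IL-6 in both lines, Ccnd3 followed the split of Cdk6, and Ccnd1 was near the detection limit. Ccnd2 (ENSMUSG00000000184, chromosome 6, 127102125 to 127129156, minus strand), a known target of STAT5 in cytokine-dependent cells, was at 411, 412, 429 and 392 CPM in gp130:IL-6R cells in medium and at 549, 544, 598 and 537 CPM under IL-6. In ChimP3V3 cells it was at 399, 374, 388 and 381 CPM in medium and at 420.0, 422, 444 and 473 CPM under IL-6. The IL-6 libraries lay above the medium libraries in each line, 1.36-fold in gp130:IL-6R (log2 0.44, SE 0.0406) and 1.14-fold in ChimP3V3 cells (log2 0.19, SE 0.0449). The ChimP3V3 response minus the gp130:IL-6R response was -0.25 on the log2 scale (SE 0.0607). Without replicate 4 of ChimP3V3 cells under IL-6 the ChimP3V3 response of Ccnd2 was 0.13. Levels of gp130:IL-6R cells under IL-6 stood above those of all other groups, and the libraries of the other 3 groups overlapped with their neighbours in the order.

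Ccnd3 (ENSMUSG00000034165, chromosome 17, 47815976 to 47910616, plus strand) encodes the D cyclin that is required for the expansion of pre-B cells. Its levels in gp130:IL-6R cells were 202, 198, 223 and 212 CPM in medium and 167, 150.1, 176 and 164 CPM under IL-6, without overlap (log2 -0.34, SE 0.0599). In ChimP3V3 cells they were 169.5, 160.3, 191 and 156 CPM in medium and 208, 190.3, 201 and 192 CPM under IL-6 (log2 0.23, SE 0.0624), where 1 medium library lay above the lowest IL-6 library. The responses differed by 0.57 (SE 0.0866), in the direction of Cdk6. Over the 16 libraries, the log2 levels of Ccnd3 and Cdk6 had a Pearson r of 0.81, a description over points that share lines and conditions. Without replicate 1 of ChimP3V3 cells under IL-6 the ChimP3V3 response of Ccnd3 was 0.17 and was no longer past the threshold.

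Ccnd1 (ENSMUSG00000070348, chromosome 7, 144483668 to 144493662, minus strand), the D cyclin typical of epithelial and mesenchymal cells, had 31 counts in the 4 gp130:IL-6R libraries in medium and 48 under IL-6. ChimP3V3 cells gave 22 counts in medium and 18 under IL-6. Per library, 1 to 17 counts were found, and the groups ranged from 4.21 to 5.70, 5.54 to 12.2, 2.04 to 5.51 and 0.743 to 5.78 CPM. Every group overlapped with its neighbour in the order of levels, 2 libraries, both of ChimP3V3 cells, had 3 counts or fewer, and no fold is given.

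**Figure D2:**
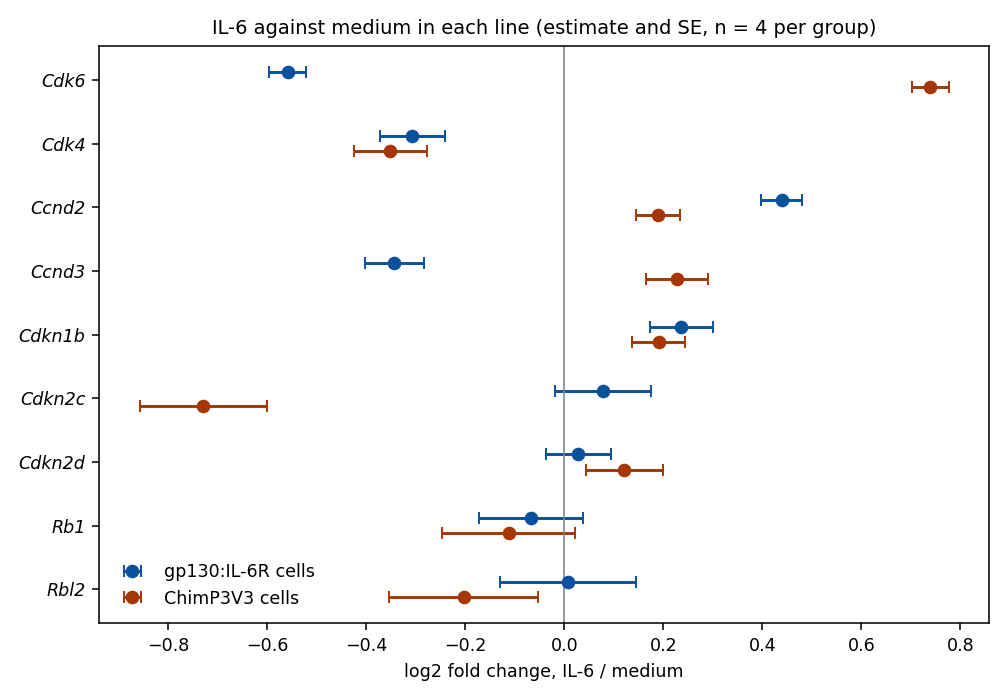
Log2 fold change of each tested gene under IL-6 against medium, with its SE, in gp130:IL-6R and ChimP3V3 cells (n = 4 per group). Cdk6 and Ccnd3 lie on opposite sides of 0 in the lines, Cdk4 and Ccnd2 on the same side, and Cdkn2c is below 0 in ChimP3V3 cells by 0.73 while near 0 in gp130:IL-6R cells.

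The inhibitors each took a different course. Cdkn1b (ENSMUSG00000003031, chromosome 6, 134897364 to 134902476, plus strand), which encodes p27, was mainly higher in ChimP3V3 cells. It was at 188, 177, 163 and 178 CPM in gp130:IL-6R cells in medium and at 208, 208, 216 and 203 CPM under IL-6, where all libraries were higher (log2 0.24, SE 0.0638). ChimP3V3 cells held 298, 263, 249 and 289 CPM in medium and 316, 279, 342 and 318 CPM under IL-6, with overlap (log2 0.19, SE 0.0539). The lines differed 1.55-fold in medium and 1.50-fold under IL-6, ChimP3V3 cells being higher. The ChimP3V3 response of Cdkn1b was no longer past the threshold without replicate 3 in medium (log2 0.14), or without replicate 1, 3 or 4 under IL-6 (0.16, 0.12 and 0.16).

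Cdkn2c (ENSMUSG00000028551, chromosome 4, 109518073 to 109524386, minus strand) encodes p18-INK4c, an inhibitor of both kinases. In gp130:IL-6R cells it was at 63.0, 77.0, 62.7 and 74.2 CPM in medium and at 81.0, 74.0, 66.5 and 72.0 CPM under IL-6, and these libraries overlapped (log2 0.078, SE 0.0965). In ChimP3V3 cells it was at 59.1, 58.3, 53.7 and 49.6 CPM in medium and at 39.0, 33.4, 24.0 and 36.2 CPM under IL-6, which is 1.66-fold lower (log2 -0.73, SE 0.128) and without overlap. The responses differed by -0.81 (SE 0.161). In ChimP3V3 cells under IL-6, the level of Cdk6 was the highest among the groups and that of this inhibitor the lowest. In gp130:IL-6R cells, Cdk6 went from 602 to 409 CPM under IL-6, while the means of Cdkn2c were 69.2 and 73.4 CPM. Over the 16 libraries, the r of the log2 levels of Cdkn2c was -0.63 with Cdk6 and 0.71 with Cdk4. Both r are descriptions over points that share lines and conditions.

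Cdkn2d (ENSMUSG00000096472, chromosome 9, 21199706 to 21202703, minus strand), the INK4 gene for p19-INK4d, differed between the lines, and its medium and IL-6 libraries overlapped. Its levels were 137, 152, 153 and 160.3 CPM in gp130:IL-6R cells in medium, 155, 153, 164 and 142 CPM under IL-6, 117, 103, 97.8 and 122 CPM in ChimP3V3 cells in medium and 114, 117, 117 and 131 CPM under IL-6. All ChimP3V3 libraries were below the gp130:IL-6R libraries of the same condition, and the log2 change with IL-6 was 0.028 (SE 0.0651) and 0.12 (SE 0.0775) in gp130:IL-6R and ChimP3V3 cells.

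The medium and IL-6 libraries of the pocket protein genes overlapped in both lines. Rb1 (ENSMUSG00000022105, chromosome 14, 73421113 to 73563262, minus strand), the retinoblastoma gene, was at 68.1, 82.4, 74.2 and 65.0 CPM in gp130:IL-6R cells in medium and 63.3, 74.7, 81.7 and 58.7 CPM under IL-6. ChimP3V3 cells held 43.8, 44.2, 50.3 and 50.9 CPM in medium and 47.0, 54.3, 34.1 and 38.6 CPM under IL-6, all below the libraries of gp130:IL-6R cells in the same condition. ChimP3V3 cells were 1.53-fold lower in medium (log2 -0.62, SE 0.115) and 1.58-fold lower under IL-6 (log2 -0.66, SE 0.123). Rbl2 (ENSMUSG00000031666, chromosome 8, 91796685 to 91850472, plus strand), which encodes p130, the pocket protein typical of resting cells, ran from 26.0 to 57.5 CPM over the 16 libraries. Its group means were 49.3, 49.7, 47.3 and 41.0 CPM, and the libraries overlapped in every comparison.

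Of the 10 genes, 5 overlap others on the opposite strand, and the strand setting of the counting was not given, so their counts are uncertain to that extent. Cdk4 overlaps Tspan31 over 641 bases (20 counts in all libraries, against 3377 for Cdk4). Ccnd1 overlaps LTO1 (543 counts, against 119), and Ccnd3 overlaps Bysl (1267 counts, against 4294). Rb1 overlaps Lpar6 (613 counts, against 1365) and Rcbtb2 (141 counts). Rbl2 overlaps Aktip over 12061 bases with 1021 counts against 1092.

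Set against all genes, the counts of these genes that passed edgeR's quasi-likelihood test (Benjamini-Hochberg adjusted p under 0.05) were as follows. In gp130:IL-6R cells 5 of 9 were called, Ccnd2 and Cdkn1b higher and Cdk4, Cdk6 and Ccnd3 lower, where 50.0% of all tested genes were called, 25.7% higher and 24.3% lower. In ChimP3V3 cells 6 of 9 were called, Cdk6, Ccnd2, Ccnd3 and Cdkn1b higher and Cdk4 and Cdkn2c lower, against 27.5% of all genes, 16.2% higher and 11.4% lower. The difference of the responses was called for 4 of 9, namely Cdk6, Ccnd2, Ccnd3 and Cdkn2c, against 23.9%. Libraries without overlap between medium and IL-6 were found for 5 of the 9 in gp130:IL-6R cells, 2 higher and 3 lower, and for 43.8% of all genes, 22.7% higher and 21.1% lower. In ChimP3V3 cells there were 4, 2 in each direction, against 27.4% of all genes, 15.9% higher and 11.5% lower. Cdk6 and Ccnd3 were 2 of 144 genes (1.51%) called lower in gp130:IL-6R and higher in ChimP3V3 cells. The comparisons were those on which the genes were chosen, so nothing is read from these shares. The median log2 change of the 9 genes was 0.0069 in gp130:IL-6R cells and 0.12 in ChimP3V3 cells, beside 0.0057 and 0.031 for all tested genes.

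ChimP3V3 cells were compared with gp130:IL-6R cells in the same condition. In medium 7 of 9 genes were called, Cdkn1b higher and Cdk4, Cdk6, Ccnd3, Cdkn2c, Cdkn2d and Rb1 lower, against 65.1% of all genes, 31.7% higher and 33.4% lower. The libraries of those 7 did not overlap between the lines, as for 57.4% of all genes, 27.7% higher and 29.7% lower. Under IL-6 there were 8, Cdk6, Ccnd3 and Cdkn1b higher and Cdk4, Ccnd2, Cdkn2c, Cdkn2d and Rb1 lower, against 62.8%, 31.2% higher and 31.6% lower. Of these 8, all but Cdk4 had no overlap, as for 54.9% of all genes, 27.2% higher and 27.7% lower. Cdk6 and Ccnd3 changed sides: Cdk6 was 1.41-fold lower in ChimP3V3 cells in medium (log2 -0.50, SE 0.0372) and 1.74-fold higher under IL-6 (log2 0.80, SE 0.0375). For Ccnd3 the values were -0.30 (SE 0.0594) and 0.27 (SE 0.0630), and the libraries did not overlap. Cdkn2c was 2.20-fold lower in ChimP3V3 cells under IL-6 (log2 -1.14, SE 0.120), the lowest value of the 9. These comparisons share samples with the responses above and are not separate evidence. Ccnd2 in medium (log2 -0.093) passed the threshold only without replicate 4 of gp130:IL-6R cells in medium (-0.12), replicate 2 or 3 of those cells under IL-6 (-0.097 and -0.094) or replicate 1 of ChimP3V3 cells in medium (-0.11). Rbl2 under IL-6 (log2 -0.27) passed it without the filter on low counts (-0.31), and without replicate 4 of gp130:IL-6R cells (-0.39) or replicate 1 or 3 of ChimP3V3 cells (-0.43 and -0.45).

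**Figure D3:**
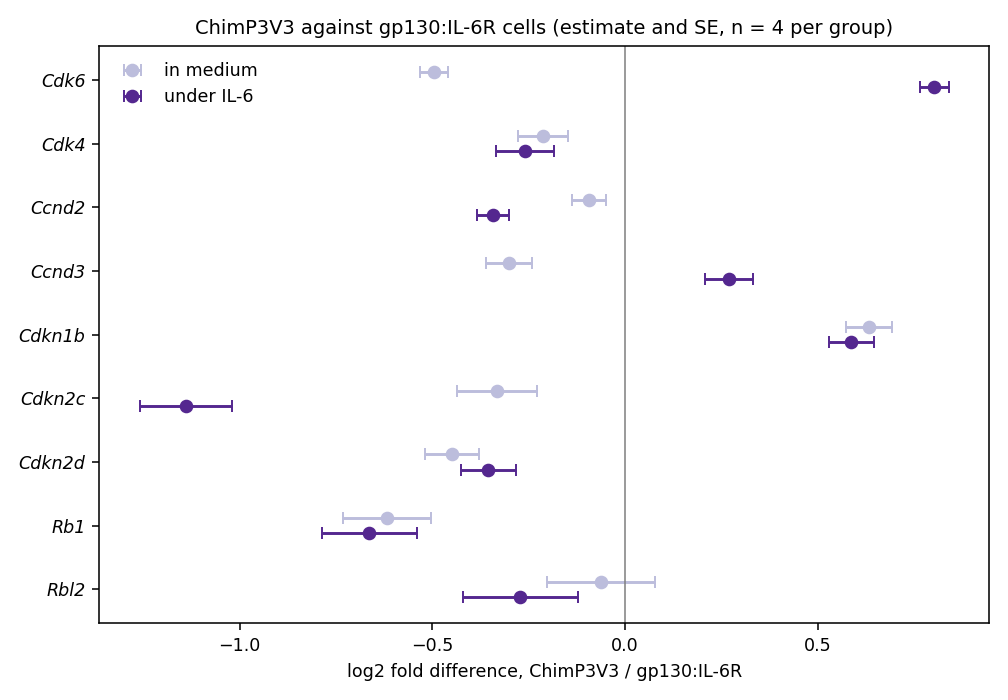
Log2 fold difference of each tested gene between ChimP3V3 and gp130:IL-6R cells, with its SE, in medium and under IL-6 (n = 4 per group). Cdk6 and Ccnd3 are below 0 in medium and above 0 under IL-6, Cdkn1b is above 0 in both, and Cdkn2c, Cdkn2d and Rb1 are below 0 in both.

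Of the listed neighbours of these genes in the G1/S pathway, more fell than rose with IL-6 in both lines. This list and those of E2F targets and transcription factors below were drawn up with earlier results of these data known. Some of the genes named were picked by smallest p. Their counts and p-values therefore describe the listed genes and are not independent evidence. Of a list of 39 other G1/S genes 36 were tested, and in gp130:IL-6R cells 4 rose and 20 fell at an adjusted p under 0.05, with a median log2 change of -0.21. In ChimP3V3 cells 3 rose and 16 fell, with a median of -0.20. Over all tested genes 25.7% rose and 24.3% fell in gp130:IL-6R cells, against 16.2% and 11.4% in ChimP3V3 cells, with medians of 0.0057 and 0.031. Cdk2, the kinase of the E cyclins, fell in gp130:IL-6R cells from 68.0 to 51.7 CPM (log2 -0.39, edgeR adjusted p = 0.00141) and in ChimP3V3 cells from 80.5 to 56.6 CPM (log2 -0.51, adjusted p = 1.02e-04). Cyclin A2 (Ccna2) fell in both lines, by 0.75 and 0.48 on the log2 scale (adjusted p = 8.84e-17 and 7.45e-09). E2f1, the founding E2F factor, fell in ChimP3V3 cells (log2 -0.72, adjusted p = 0.00179), and its change of -0.29 in gp130:IL-6R cells was not past the threshold (adjusted p = 0.0856). The E2F dimer partner Tfdp2 had the direction of Cdk6 in each line, with log2 changes of -0.20 in gp130:IL-6R and 0.18 in ChimP3V3 cells (adjusted p = 0.0137 and 0.0124). The first call was lost without replicate 1 of gp130:IL-6R cells in medium (adjusted p = 0.0547) and with thinned counts. The second was lost without any 1 of 3 libraries, at the highest without replicate 2 of ChimP3V3 cells under IL-6 (adjusted p = 0.160), and also with DESeq2 (0.0907) and without the filter on low counts (0.0721).

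Cyclin E and the remaining inhibitors and pocket protein varied in how they moved. Ccne1, the cyclin partner of CDK2, fell in ChimP3V3 cells from 45.9, 38.5, 50.3 and 39.4 CPM in medium to 22.4, 20.8, 25.6 and 21.7 CPM under IL-6 (log2 -0.94, SE 0.135, adjusted p = 5.82e-07), without overlap. Its change of -0.29 in gp130:IL-6R cells had an adjusted p of 0.0463 that was lost without any 1 of 11 libraries, at the highest 0.111 without replicate 1 under IL-6. It was also lost with DESeq2 (0.120), without the filter on low counts (0.0785) and with the filter at 5 CPM (0.0546). Cdkn1a, which encodes p21, another inhibitor of the p27 type, rose in both lines, from 206 to 324 CPM in gp130:IL-6R cells (log2 0.66, adjusted p = 4.65e-14) and from 207 to 262 CPM in ChimP3V3 cells (log2 0.34, adjusted p = 8.27e-06). Rbl1, the pocket protein p107 and a known E2F target, fell from 114 to 53.9 CPM in gp130:IL-6R cells (log2 -1.08, adjusted p = 5.15e-14). In ChimP3V3 cells Rbl1 fell from 80.7 to 56.1 CPM (log2 -0.53, adjusted p = 3.12e-05). The kinase Gsk3b, which phosphorylates cyclin D1 for degradation, rose in gp130:IL-6R cells (log2 0.30, adjusted p = 1.18e-06), while its change in ChimP3V3 cells was 0.031 (adjusted p = 0.720). The INK4 genes Cdkn2a and Cdkn2b had 3 and 6 counts over all 16 libraries, and Cdkn1c, named after its values were seen, had 10. Those of Cdkn1c were all under IL-6, 8 in gp130:IL-6R and 2 in ChimP3V3 cells, with at most 4 in a library.

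Of 25 genes known as E2F targets, which encode DNA replication and nucleotide enzymes, all were tested. In gp130:IL-6R cells 21 fell and 1 rose, with a median log2 change of -0.58. In ChimP3V3 cells 20 fell and 1, Gins2, rose, with a median of -0.48. The helicase subunit Mcm2 fell in both lines, by 1.13 and 0.51 on the log2 scale (adjusted p = 1.25e-18 and 1.27e-07), and so did the ribonucleotide reductase subunit Rrm1, by 0.86 and 0.55 (adjusted p = 3.03e-17 and 3.28e-10). Mcm6 fell in gp130:IL-6R cells (log2 -0.65, adjusted p = 2.37e-14) with a change of -0.023 in ChimP3V3 cells (adjusted p = 0.747). Of all tested genes 24.3% fell in gp130:IL-6R and 11.4% in ChimP3V3 cells.

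**Figure D4:**
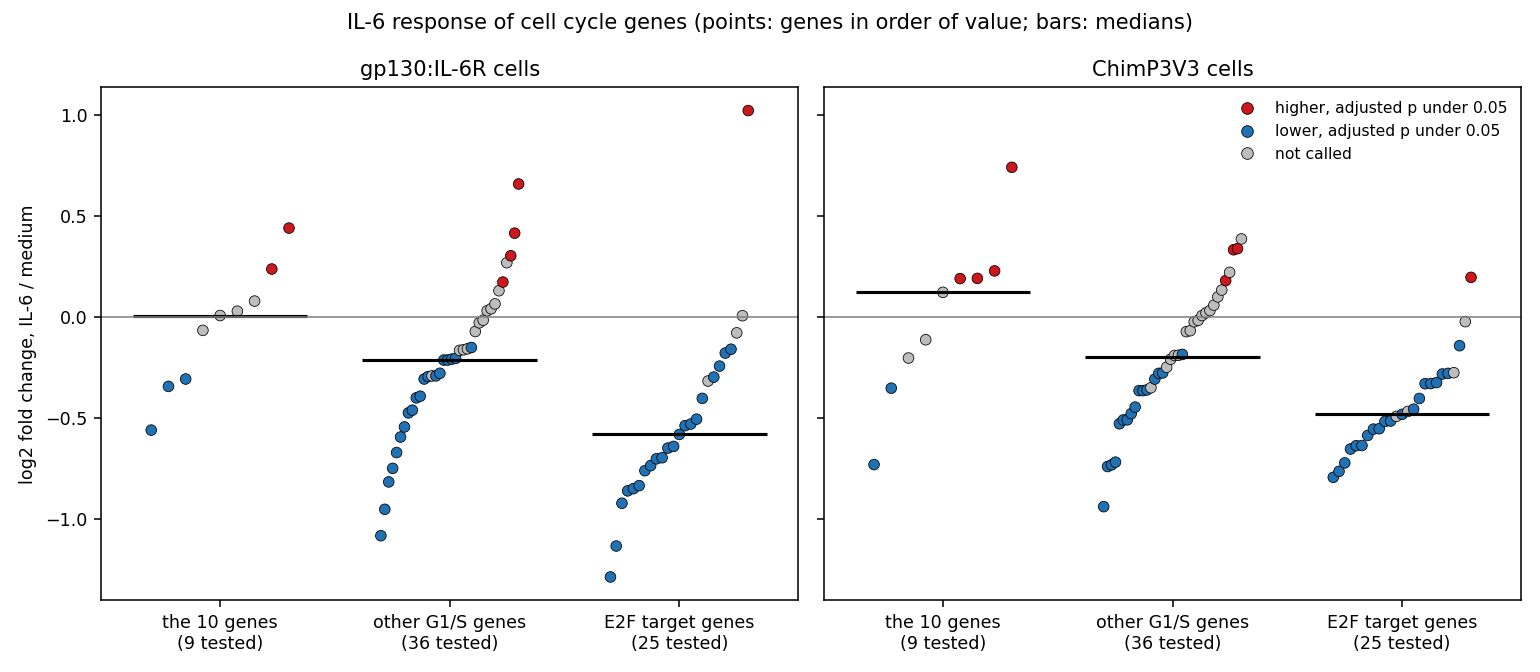
Log2 change under IL-6 of the 10 genes (9 tested), of 36 other G1/S genes and of 25 E2F targets in each line. Points are genes in order of value, coloured by the call at an adjusted p under 0.05, and bars are medians. The medians of the E2F targets are -0.58 and -0.48.

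Transcription factors known to act on members of the family were also measured. Myc, which is known to raise Ccnd2 and Cdk4 in other cells, rose in both lines, by 0.97 and 0.61 on the log2 scale (adjusted p = 3.34e-10 and 7.45e-06). Under IL-6 Ccnd2 was higher and Cdk4 lower in both lines, and a link of either to Myc was not tested. Foxo3, an activator of Cdkn1b when nuclear, rose by 0.45 and 0.33 (adjusted p = 2.67e-08 and 4.97e-05). Stat5a fell in gp130:IL-6R cells from 34.8 to 23.1 CPM (log2 -0.58, adjusted p = 0.00350), with a change of 0.083 in ChimP3V3 cells (adjusted p = 0.717). Stat5b in ChimP3V3 cells changed by -0.32 (adjusted p = 0.0279), a call lost without any 1 of 3 libraries and, at the highest, at 0.105 without replicate 4 under IL-6, and also with DESeq2 (0.0804). Stat3 did not pass in either line (log2 0.061 and 0.020, adjusted p = 0.302 and 0.840) and was lower in ChimP3V3 cells in medium (log2 -0.38, adjusted p = 2.68e-09). Gata1, an erythroid factor, fell in gp130:IL-6R cells (log2 -1.23, adjusted p = 6.87e-11). Bcl6, a repressor of Ccnd2 in B cells, was at 13.1 and 14.6 CPM in gp130:IL-6R cells but had 1 and 2 counts in the ChimP3V3 groups, and Foxo1 had 3 counts in all libraries.

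The genes whose log2 levels followed Cdk6 most closely over the 16 libraries, among 7254 with a mean of at least 20 CPM, were Fads2 (Pearson r 0.92), a fatty acid desaturase, Rassf1 (0.92), a Ras-association protein, Ptpn11 (0.92), the phosphatase SHP2, Ppip5k2 (0.91), an inositol phosphate kinase, and Rcor2 (0.91), a corepressor. All 5 were lower under IL-6 in gp130:IL-6R and higher in ChimP3V3 cells, a direction that their choice by likeness to Cdk6 sets, so no test is given. Rassf1 went from 81.3 to 56.1 CPM in gp130:IL-6R and from 69.1 to 107 CPM in ChimP3V3 cells. These r are descriptions over libraries that share groups, and they say nothing of shared control.

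**Figure D5:**
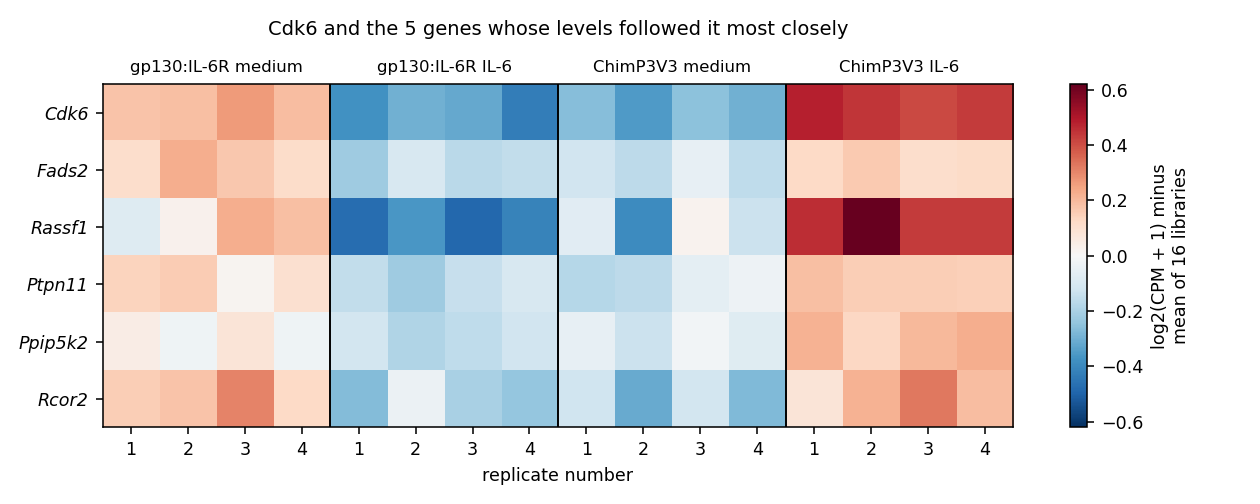
Deviation of log2(CPM + 1) from the mean of the 16 libraries for Cdk6 and the 5 genes of most like pattern, with libraries in columns by group and replicate number. For all 6 genes, each IL-6 library is below each medium library in gp130:IL-6R cells and above it in ChimP3V3 cells.

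For the other members, the genes of most like pattern were Cad (0.94) for Cdk4, Junb (0.98) and Klhl24 (0.97) for Ccnd2, Sumo3 (0.90) and Ormdl2 (0.87) for Ccnd3, and Abca1 (0.97) and Mef2a (0.97) for Cdkn1b. For Cdkn2c they were Lgals1 (0.95) and Shmt2 (0.94), for Cdkn2d Tmem123 (0.94) and Rsl1d1 (0.93), for Rb1 Naa10 (0.93) and Ncoa6 (0.92), and for Rbl2 Pitpnb (0.80) and Cnot7 (0.78). Among the members themselves, the r furthest from 0 was that of Cdkn1b with Rb1, at -0.88, followed by Cdkn1b with Cdkn2c at -0.81 and Cdk6 with Ccnd3 at 0.81. Cdkn1b, Rb1 and Cdkn2d differed mainly between the lines, while Cdk6 and Ccnd3 differed by line and condition together.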

How the data were processed

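Raw counts per gene of 16 Ba/F3 libraries were deposited by the authors. Per the labels' protocols, 100 ng of total RNA entered the QuantSeq 3' FWD kit, which reads the 3' ends of polyadenylated RNA, so counts do not scale with transcript length and levels are compared within a gene only. Trimming, mapping and statistics were done in CLC Genomics Workbench 23.0.4, per the file headers of the overview sheet, with GRCm39 and Ensembl release 107. Neither molecular identifiers nor the handling of duplicate reads nor the strand setting is given in the sources used here. Another 48 deposited columns (RPKM, TPM, CPM) stayed unused.

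The filterByExpr function, run by group with a minimum count of 10 and a minimum total of 15, kept 9540 of 25650 genes and 99.6% of counts. CPM used TMM factors. edgeR 4.0.16 (R 4.3.3) fitted a quasi-likelihood model to all 16 libraries with 1 mean per group and 12 residual degrees of freedom, and Benjamini-Hochberg adjustment ran over all 9540 genes at a threshold of 0.05. Adjusted p-values of list genes come from this model; the script was tested on simulated data. Each SE was taken as the size of the log2 change divided by the square root of edgeR's F statistic. Such an SE can be smaller than counting error alone, as for Ccne1 in ChimP3V3 cells. Likeness is the Pearson r of log2(CPM + 1). The members and lists were chosen with earlier results of these data known. Beside the members, the text names 8 fixed G1/S genes, up to 3 called G1/S genes and 2 E2F targets per direction and comparison with the smallest p, all listed transcription factors, and the genes most like each member. Results of some of these genes are not reported here.

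Tried instead were DESeq2 1.42.0, limma 3.58.1 on log2(CPM + 1), RLE factors, a fit without any filter or with 5 CPM required in 4 libraries, a fit of the compared groups alone, a block for the replicate number, counts thinned to 1275112 per library, and leaving out each library in turn. Promoters were read from the RefSeq table on GRCm38.p6, 250 bases before each start.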

Additional observations from a re-analysis of the deposited data

Results flagged for a closer look

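Every Cdk6 library under IL-6 lay below every medium library in gp130:IL-6R cells and above every medium library in ChimP3V3 cells. The log2 difference of the responses, 1.30, is given as a description, because Cdk6 was chosen with these counts known. Its call was only counted above, beside the share of all genes called. The other values below come from genes of the lists whose IL-6 responses differed between the lines (ChimP3V3 minus gp130:IL-6R, log2, edgeR's test of the difference, n = 4 libraries in each of the 4 groups).

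The difference was called for 12 of 36 G1/S genes, 6 higher and 6 lower, and for 11 of 25 E2F targets, 8 higher and 3 lower, beside 23.9% of all tested genes. Among G1/S genes the response was higher in ChimP3V3 cells for Rbl1 by 0.55 (adjusted p = 0.00139), Tfdp1 by 0.48 (4.38e-05), Tfdp2 by 0.38 (6.93e-04) and Ccna2 by 0.27 (0.00911). It was lower for the cyclin E genes Ccne1, at -0.64 (0.0106), and Ccne2, at -0.44 (0.00534), and for Cdkn1a, at -0.32 (0.00160), Gsk3b, at -0.27 (0.00412), and Lin9 of the DREAM complex, at -0.43 (0.0275). The remaining G1/S genes called, named after their values were seen, were E2f8 (0.52), Rbbp4 (0.20) and Lin54 (-0.57).

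Among E2F targets the difference was -0.58 for Rrm2 (adjusted p = 3.35e-06) and -0.17 for Pcna (0.0279). It was above 0 for the helicase subunits Mcm2 at 0.62 (3.10e-06), Mcm4 at 0.46 (5.22e-06) and Mcm6 at 0.62 (9.22e-10), for Rrm1 at 0.31 (0.00313) and for Gins2 at 0.19 (0.0109). Also called, and named after their values were seen, were Mcm7 (0.30), Tk1 (0.65) and Uhrf1 (0.52). Of the transcription factors it was 1.09 for Gata1 (7.27e-07) and 0.66 for Stat5a (0.0214).

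The calls on Ccna2, Gins2, Lin9, Pcna and Stat5a were lost in 3 to 8 of the alternative settings, with adjusted p of at most 0.0601, 0.0985, 0.0848, 0.0912 and 0.0841. Of these losses, 3 to 5 per gene came from leaving out 1 library. These were replicate 4 of gp130:IL-6R cells under IL-6 for Ccna2, Gins2 and Stat5a, replicate 1 of that group for Gins2, and replicates of gp130:IL-6R cells in medium for Lin9 (2 and 4) and Pcna (1 and 4). In ChimP3V3 cells they were replicates in medium for Lin9 (1), Pcna (3 and 4) and Stat5a (2 and 4), and replicates under IL-6 for Ccna2 (2 and 4), Gins2 (1, 3 and 4), Lin9 (4) and Stat5a (1 and 2). No library of the 10 genes stood apart from its group of 4 by Dixon's test, over 40 groups at a critical value of 0.829, where chance marks about 1 group in 20.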

How the results depend on the processing

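None of the 10 genes changed direction where a fold was called, and no total count of genes called moved by more than 1.5 times under any alternative run. The log2 response of Cdk6 lay between -0.59 and -0.52 in gp130:IL-6R cells and between 0.69 and 0.75 in ChimP3V3 cells, and their difference between 1.23 and 1.32. Leaving out single libraries gave 5 members called throughout in gp130:IL-6R cells, 4 to 6 in ChimP3V3 cells, 4 throughout for the difference, and 7 to 8 and 8 to 9 between the lines in medium and under IL-6. It gave 19 to 24 G1/S genes and 20 to 22 E2F targets in gp130:IL-6R cells, and 18 to 20 and 20 to 22 in ChimP3V3 cells. Genes called over the whole table were 4468 to 4795 and 2295 to 2625 for the responses and 2073 to 2200 for their difference. DESeq2 called 3994, 1937 and 1564, and for the difference its calls above 0 moved by more than 1.5 times, with 744 higher and 820 lower. Without the filter on low counts the difference was higher for 903 and lower for 1257 genes, against 1182 and 1098 with it. Single genes of the lists were run under the same settings after the data were seen, and none changed sign as a called value.

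The replicate numbers paired the libraries weakly at most. Deviations of libraries with the same number correlated between -0.079 and 0.12 over 16 pairs. Among the 4 libraries of the other group, 7 of 16 matched best with their own number, and these values cannot exclude a weak pairing. With the replicate block 4748, 2601 and 2254 genes were called for the responses and their difference, against 4769, 2625 and 2280. Summing the 3 pairs of libraries that agreed within counting noise, a setting added after the data were seen, left 13 libraries and 4740, 2581 and 2250 genes. Depth limits Ccnd1, the low INK4 genes and Rbl2, whose libraries ran from 26.0 CPM up.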
